A study of Apera spica-venti with 7 samples.

Results

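In the deposited transcriptome of the grass weed Apera spica-venti (loose silky bentgrass), 133 translated transcripts had a best protein match named as one of 6 cytochrome P450s of fatty acid hydroxylation (CYP86B1, CYP86A1, CYP86A2, CYP94A1, CYP77A2 and CYP704C1) or as omega-hydroxypalmitate o-feruloyl transferase. They were selected on the deposited name of the best match, where its e-value did not exceed 0.1. Of these transcripts, 92 came from the 7 assemblies of single libraries, among 251792 transcripts with a match, and 41 from the combined assembly of all reads, among 66641. The names were picked for a report with their counts already known, so the counts below are a description and carry no test.

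The organ libraries held root, leaf and stem of plants at stem elongation (BBCH 34 to 36), from 0.5 g of frozen tissue each. The seed libraries held 0.7 g of germinated seeds each at BBCH 05 (radicle out of the seed), BBCH 07 (coleoptile out of the caryopsis), BBCH 08 (coleoptile growing) and BBCH 09 (coleoptile through the soil surface). BBCH is a decimal code of plant growth stages. Organs came from potted greenhouse plants and were frozen in liquid nitrogen. Seeds germinated on filter paper in a climate cabinet and were kept in RNAlater, and the paper reports that good RNA was hard to obtain from them. A difference between organs and seed stages therefore cannot be told apart from growth conditions, preservation and RNA quality. All plants came from 1 mixture of untransformed Danish populations that had tested susceptible to herbicides, so the material is genetically mixed, and every library pooled individuals. The tables analysed here hold 1 sample per condition and no replicate. The study also made an additional library each from leaf and root, which was not analysed here on its own, and the combined assembly pools reads and is not a further sample. A value here is a number of assembled transcripts, which is not an expression level, since read depth had been evened out by k-mers and similar contigs merged before the transcripts were annotated. In such bulk libraries, fewer cells of a type and less RNA per cell cannot be told apart.

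Cutin, the polyester of the plant cuticle, and suberin, the polyester of root endodermis, periderm and seed coats, are built from omega-hydroxylated fatty acids. Cytochrome P450s of the CYP86 clan attach the terminal hydroxyl group, and some CYP77 enzymes add hydroxyl or epoxide groups in the middle of the chain. Acyltransferases of the BAHD family then join ferulate to the omega-hydroxyl group, which links the aliphatic and the phenolic parts of suberin. In grasses, these polymers line the root, coat the leaf and stem, and enclose the grain. Roles of single enzymes are known mainly from Arabidopsis, and a name passed on by a best match is a homologue's name, not a measured activity.

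Before the names are described, the libraries were checked against their labels with lists of organ markers. Names of photosystem proteins, chlorophyll binding proteins and ribulose bisphosphate carboxylase made up 18.3 per 10000 matched transcripts in leaf, and 8.37 to 10.6 in the other 6 single assemblies. The root list (nitrate and ammonium transporters and nicotianamine synthase) was at 4.64 per 10000 in root, and at 1.57 to 2.69 elsewhere. CASP-like names, also planned as root markers but counted apart, did not set root apart. They were at 7.47 per 10000 in root, 7.53 in stem, 7.26 at BBCH 07 and 6.34 to 6.85 elsewhere. The seed list (oleosins, late embryogenesis abundant proteins, globulins, amylases and storage proteins) was at 2.05 to 5.41 per 10000 in the organs, and at 5.87 to 10.5 in the seed stages. The stem list of cell wall names did not set stem apart, with 10.3 per 10000 in stem and 16.2 in leaf. Matched transcripts numbered 28412 in leaf to 40902 at BBCH 09, so the organ assemblies of leaf and stem were the smallest.

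All 7 names together gave 12 transcripts in root, 12 in leaf and 10 in stem, against 15 at BBCH 05, 10 at BBCH 07, 14 at BBCH 08 and 19 at BBCH 09. As a share, this was 3.09 per 10000 matched transcripts in root (95% Wilson interval 1.77 to 5.40), 4.22 in leaf (2.42 to 7.38) and 3.42 in stem (1.86 to 6.30). The seed stages had 4.13 at BBCH 05 (2.51 to 6.82), 2.50 at BBCH 07 (1.36 to 4.61), 3.66 at BBCH 08 (2.18 to 6.15) and 4.65 at BBCH 09 (2.97 to 7.25). The intervals of all 7 single assemblies overlapped, and they cover counting error only, since transcripts of 1 assembly are not independent molecules. The combined assembly stood at 6.15 per 10000 (4.54 to 8.34).

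**Figure D1:**
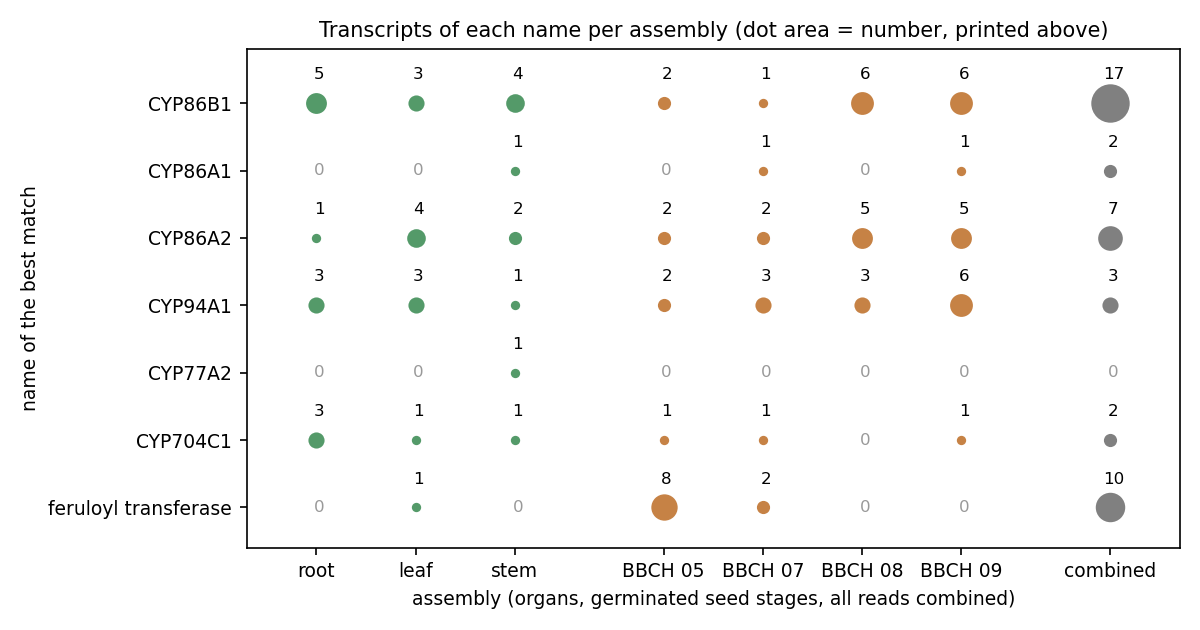
Number of transcripts of each name (rows) in each assembly (columns: organs in green, seed stages in orange, combined assembly in grey), with dot area in proportion to the number printed above it. CYP86B1, CYP86A2 and CYP94A1 were found in every single assembly, while 8 of the 11 feruloyl transferase transcripts of the single assemblies were at BBCH 05.

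CYP86B1, which in Arabidopsis roots and seeds makes the very-long-chain omega-hydroxy acids of suberin, had the most transcripts, 27 over the single assemblies. This place depended on short peptides, since with at least 150 amino acids CYP86B1 had 8 and CYP86A2 had 14. At all lengths, CYP86B1 had 5 in root, 3 in leaf and 4 in stem, against 2 at BBCH 05, 1 at BBCH 07 and 6 each at BBCH 08 and BBCH 09. The combined assembly had 17. Organs and seed stages overlapped, and within the seed stages the high counts were those of the later pair, with 12 transcripts over BBCH 08 and BBCH 09 and 3 over BBCH 05 and BBCH 07.

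CYP86A1 is the omega-hydroxylase of long-chain fatty acids in Arabidopsis root suberin. It was among the rarest names, with 1 transcript in stem, against 1 at BBCH 07 and 1 at BBCH 09, and with 2 in the combined assembly. Root, where the Arabidopsis enzyme acts, held none, nor did leaf, BBCH 05 and BBCH 08. A count of 0 allows up to 0.773 per 10000 matched transcripts in root, taking 3 transcripts as the limit and transcripts as independent.

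CYP86A2, an omega-hydroxylase of cutin monomers in Arabidopsis leaves, had 1 transcript in root, 4 in leaf and 2 in stem. The seed stages had 2 each at BBCH 05 and BBCH 07 and 5 each at BBCH 08 and BBCH 09. The combined assembly had 7. Organs (1 to 4) and seed stages (2 to 5) overlapped, leaf was the highest organ, and the later seed stages held 10 transcripts to 4 over the earlier ones.

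CYP94A1 was named from an omega-hydroxylase of vetch that acts on fatty acids. It had 3 transcripts in root, 3 in leaf and 1 in stem, against 2 at BBCH 05, 3 at BBCH 07, 3 at BBCH 08 and 6 at BBCH 09. BBCH 09 stood highest and the remaining assemblies lay between 1 and 3. Over the single assemblies it had 21 transcripts, and in the combined assembly 3.

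CYP77A2, a name taken from eggplant, was found once, as a peptide of 145 amino acids in stem with a mean similarity of 88%, and not in the combined assembly. CYP704C1, a name taken from pine, had 3 transcripts in root, 1 in leaf and 1 in stem, against 1 at each of BBCH 05, BBCH 07 and BBCH 09 and 0 at BBCH 08. Of the 3 in root, 2 were peptides of 395 and 114 amino acids read from 1 contig, so root held 2 contigs of this name. Its best-known relatives, the CYP704B enzymes, make precursors of the pollen wall polymer sporopollenin in Arabidopsis and rice.

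The omega-hydroxypalmitate o-feruloyl transferase, which joins ferulate to omega-hydroxy acids of suberin in Arabidopsis and potato, showed the most uneven counts. It had 0 transcripts in root, 1 in leaf and 0 in stem, against 8 at BBCH 05, 2 at BBCH 07, 0 at BBCH 08 and 0 at BBCH 09, and 10 in the combined assembly. BBCH 05 alone held 72.7% of the 11 in the single assemblies. The share at BBCH 05 was 2.20 per 10000 (95% Wilson interval 1.12 to 4.35), with 0.352 in leaf (0.0621 to 1.99) and 0.501 at BBCH 07 (0.137 to 1.83). These intervals treat transcripts as independent, which fragments of the same protein are not, and no comparison is drawn from them. With 0 transcripts, up to 0.773 per 10000 in root, 1.03 in stem, 0.785 at BBCH 08 and 0.733 at BBCH 09 would go undetected.

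**Figure D2:**
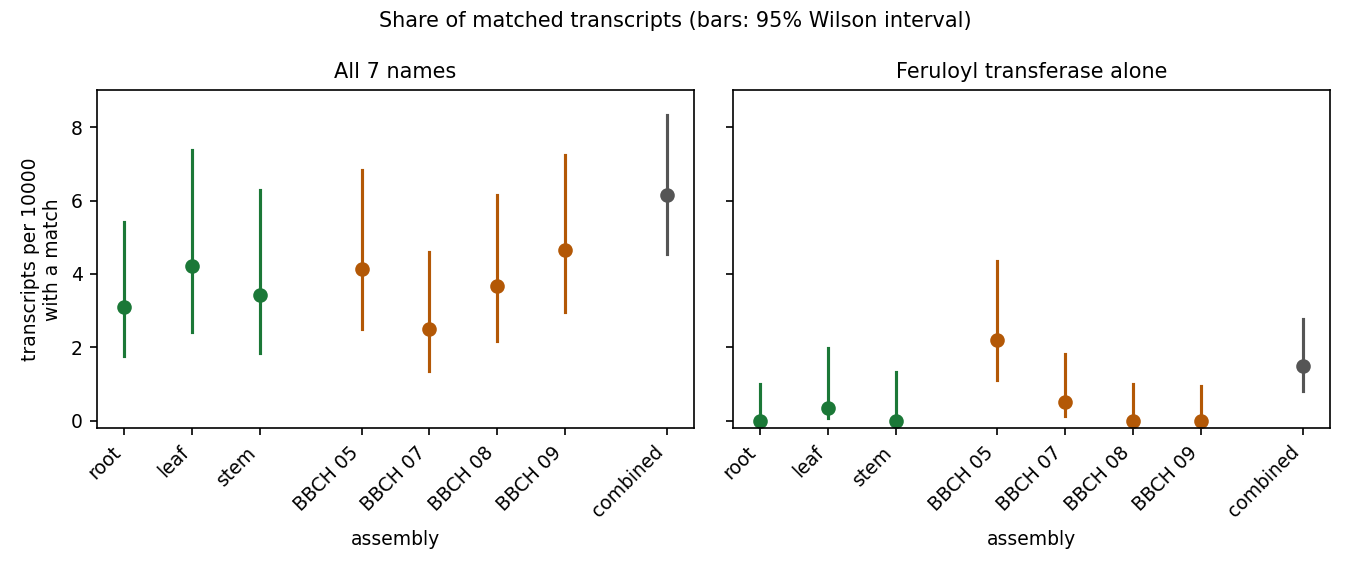
Transcripts per 10000 transcripts with a match (vertical axis) in each assembly, for all 7 names (left) and for the feruloyl transferase alone (right). Points are shares and bars are 95% Wilson intervals, which overlap between the single assemblies on the left, and on the right the highest point is the feruloyl transferase at BBCH 05 (2.20).

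The 8 feruloyl transferase transcripts at BBCH 05 did not stand for 8 different proteins. They came from 5 assembly clusters, groups of contigs that the assembler could not separate fully, and matched 3 UniProt proteins: M7YKW7 with 6, M8A1H4 with 1 and M8AN11 with 1. Their lengths ran from 106 to 416 amino acids, with a median of 137. The longest matched M8AN11, and it shared its cluster with a fragment matched to M7YKW7. In the combined assembly, all 10 transcripts matched M7YKW7, lay in 5 clusters and had 103 to 186 amino acids, and neither M8A1H4 nor M8AN11 was the best match of any. BBCH 07 had 1 transcript each for M7YKW7 and M8A1H4, and leaf had 1 for M8A1H4. The cluster of the leaf transcript also held peptides without an informative name, of 123 to 574 amino acids at 73% to 89% similarity. In the combined assembly, a cluster with M7YKW7 fragments held a peptide of 462 amino acids named 10-deacetylbaccatin iii 10-o-acetyltransferase. Whether any of these is a feruloyl transferase was not tested.

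Other acyltransferases were frequent in all libraries. The GO term for transfer of acyl groups other than amino-acyl groups stood on 243 transcripts in root, 101 in leaf and 166 in stem, against 216 at BBCH 05, 213 at BBCH 07, 227 at BBCH 08 and 265 at BBCH 09. The feruloyl transferase took 0.990% of them in leaf, 3.70% at BBCH 05 and 0.939% at BBCH 07. At BBCH 09, where the term was most frequent, 177 of the 265 had a name that says nothing of function, and whether feruloyl transferases are among those was not tested.

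To read these counts against the rest of the transcriptome, the same patterns were counted over the 2273 informative names with at least 7 transcripts in the 7 single assemblies, among them 5 of the 7 names. CYP86A1, with 3 transcripts, and CYP77A2, with 1, were too rare. No name of the 5 was higher in each organ than in each seed stage (0.88% of all 2273 names), and none was lower in each organ (5.37%). The feruloyl transferase was absent from root, as were 5.28% of all names, and none of the 5 was absent from leaf (14.5%). At least 70% in 1 assembly was met by the feruloyl transferase and by 0.264% of all names. Counted as distinct proteins, BBCH 05 held 3 of 6 (50%), and counted as clusters 5 of 8 (62.5%), so the feruloyl transferase no longer met it. CYP86B1 and CYP86A2 had at least 2 times as many transcripts over BBCH 08 and BBCH 09 as over BBCH 05 and BBCH 07, a pattern of 11.4% of all names. The reverse was met by the feruloyl transferase (0 over BBCH 08 and BBCH 09, against 10 over BBCH 05 and BBCH 07) and by CYP704C1 (1 against 2), and by 8.97% of all names. Since the names were chosen with these counts known, nothing is read from the comparison.

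Among all transcripts named as cytochrome P450, the 6 P450 names made up 13.0% in root (12 of 92, 95% Wilson interval 7.62 to 21.4), 19.6% in leaf (11 of 56, 11.3 to 31.8) and 15.4% in stem (10 of 65, 8.58 to 26.1). In the seed stages they made up 8.64% at BBCH 05 (7 of 81, 4.25 to 16.8), 7.92% at BBCH 07 (8 of 101, 4.07 to 14.9), 14.6% at BBCH 08 (14 of 96, 8.89 to 23.0) and 14.4% at BBCH 09 (19 of 132, 9.41 to 21.4). Leaf was highest and the earlier seed stages lowest, and all 7 intervals overlapped. Most P450s carry no family name in these tables. Of 2362 transcripts of the single assemblies with GO terms for both heme binding and oxygen insertion, 64.0% had an uninformative name and 71 were among the 6 P450 names.

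Every one of the 133 transcripts had its best match in Triticum urartu or Aegilops tauschii, the wild donors of the A and D genomes of bread wheat. CYP86B1 (27 transcripts in the single assemblies) and the feruloyl transferase (11) were matched to Triticum urartu alone. CYP86A2 (21), CYP704C1 (8), CYP86A1 (3) and CYP77A2 (1) were matched to Aegilops tauschii alone, and CYP94A1 to Aegilops tauschii in 17 cases and to Triticum urartu in 4. Other transcripts named as P450 had 70.7% of their matches in the same pair of species, and all matched transcripts 26.6%. The species of the match went with whether a name was given at all. Among transcripts with GO terms for heme binding and oxygen insertion, 10.2% of the 694 matched to this pair of species had an uninformative name, against 86.3% of the 1668 matched to other species. A homologue whose closest protein lay in another species thus mostly carried no name that could be counted here.

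Under the 7 names lay 30 distinct proteins in the single assemblies. M7YEQ2, matched by 13 CYP86B1 transcripts, was the only one found in all 7, and 16 proteins were found in 1 single assembly each. A protein matched by 1 transcript can only be found in 1 assembly. The same counts over all matched proteins are not given here, so nothing is read from these numbers. For CYP86A2, N1QT03 was matched in root and in each of the 4 seed stages but neither in leaf nor in stem, and M8CYU9 was matched in leaf, stem, BBCH 08 and BBCH 09. For CYP94A1, the 3 root transcripts all matched M8BVC9, which was also found at BBCH 05 and BBCH 09, whereas leaf matched 3 other proteins. CYP704C1 rested on M8CUK2 in 6 single assemblies, and root alone also had M8B3R6.

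**Figure D3:**
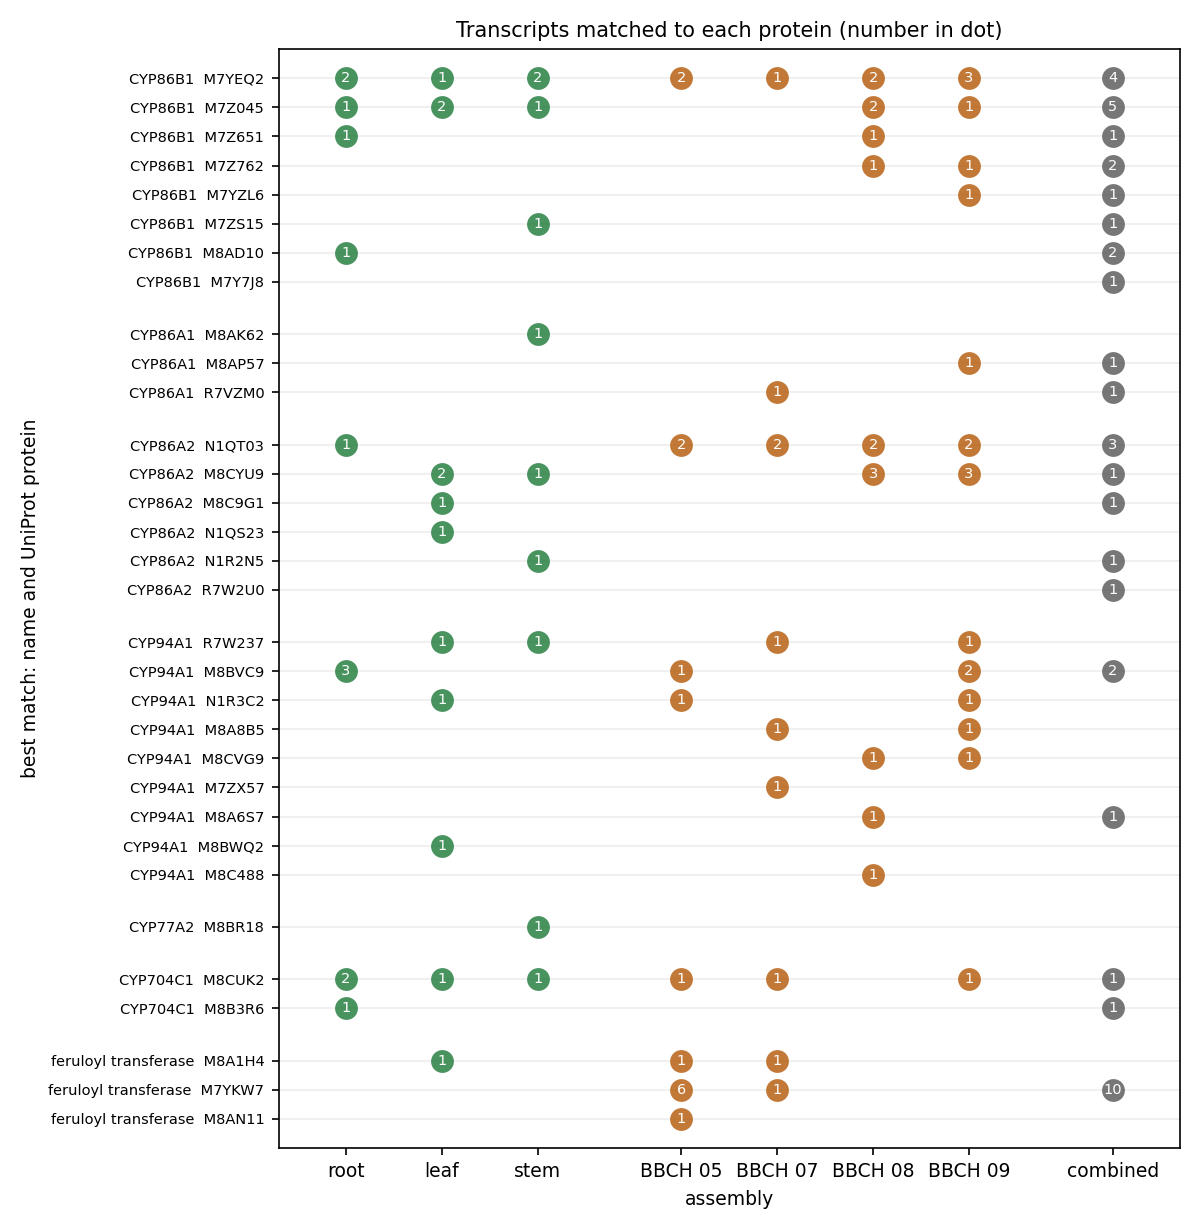
Number of transcripts (printed in each dot) matched to each UniProt protein (rows, grouped by name) in each assembly (columns: organs in green, seed stages in orange, combined assembly in grey). Only M7YEQ2 (CYP86B1) has a dot in all 7 single assemblies, and N1QT03 and M8CYU9 (both CYP86A2) overlap at BBCH 08, BBCH 09 and in the combined assembly.

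The combined assembly held 20 proteins, of which 18 were also among the 30 of the single assemblies (90% of the 20 and 60% of the 30). The exceptions were M7Y7J8 (CYP86B1) and R7W2U0 (CYP86A2), seen in the combined assembly alone. For CYP94A1, 9 proteins of the single assemblies came down to 2, M8BVC9 and M8A6S7. The longest peptide of all the members belonged to M8A6S7 in the combined assembly, with 558 amino acids, and at BBCH 08 the same protein was matched by 212.

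Most transcripts were fragments. Over the single assemblies, 70 of the 92 (76.1%) were under 200 amino acids, against 64.0% of other P450s and 51.6% of all matched transcripts, and 12 had at least 300. For CYP86B1, the 12 organ transcripts ran from 102 to 515 amino acids with a median of 123.5, and the 15 seed transcripts from 101 to 177 with a median of 123. All 3 peptides of at least 300 amino acids that carried the CYP86B1 name were thus from organs: 515 in root, 515 in stem and 363 in leaf. Other transcripts named as P450 were also longer in organs, with medians of 184 to 195.5 amino acids, against 153 to 179 in seed stages. Their shares of at least 300 amino acids by class are not given here, so nothing is read from the split. Clusters of seed CYP86B1 transcripts also held long peptides named only as uncharacterized, with 450 amino acids at BBCH 05, 390 at BBCH 07, 363 at BBCH 08 and 351 at BBCH 09. Organ clusters held such peptides too, with 516 in leaf. Whether these belong to CYP86B1 was not tested. The 515 pair matched M7Z045 with the same similarity of 82%, in libraries assembled separately.

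CYP86A2 had long peptides in both classes, with 513 amino acids in stem and 461 in leaf, against 449 at BBCH 09, all matched to M8CYU9 at 80% to 81% similarity. Its median was 112 in organs (7 transcripts) and 202.5 in seed stages (14). CYP94A1 ran from 103 to 207 in organs and from 100 to 291 in seed stages, and none of these reached 300. The CYP704C1 peptides with the weakest matches of all 92 were the long ones: 395 in root (e-value 6.5e-14, similarity 79%), 364 at BBCH 05 (2.3e-13, 79%) and 417 at BBCH 09 (2e-14, 68%). Those of 106 to 114 amino acids matched the same M8CUK2 at 92% to 94%, and leaf and stem gave the same length (110), e-value (1.6e-64) and similarity.

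**Figure D4:**
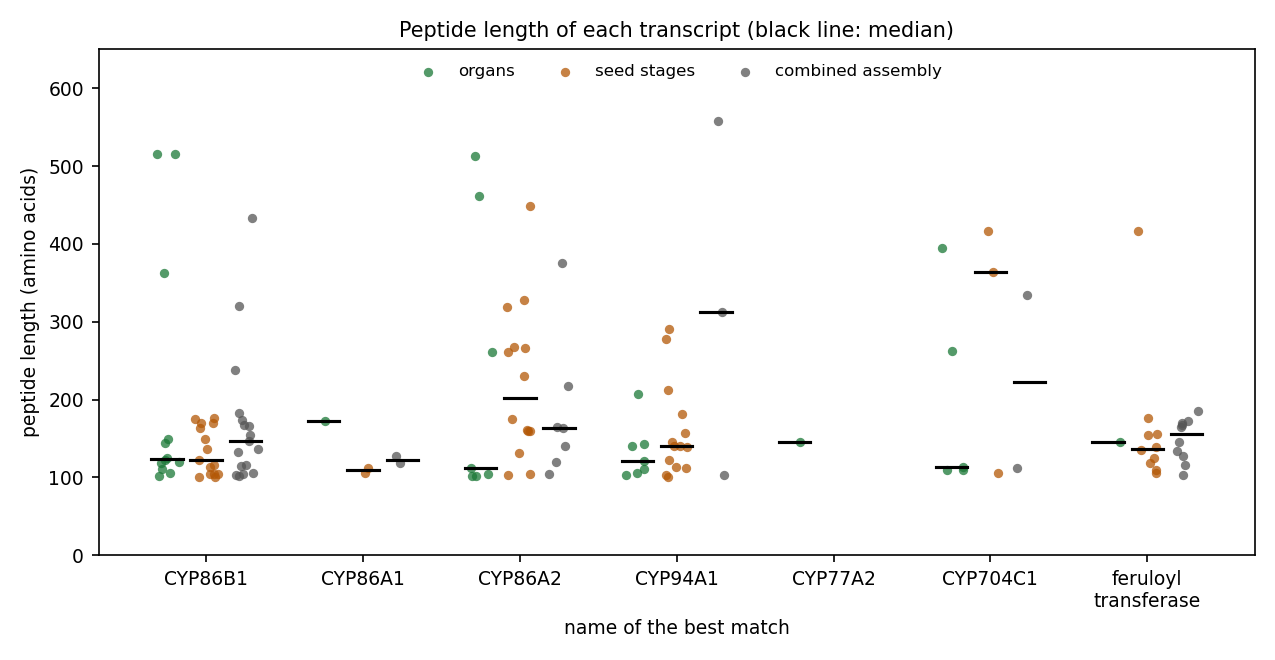
Peptide length in amino acids (vertical axis) of each transcript, by name, for organs (green), seed stages (orange) and the combined assembly (grey), with the median as a black line. Most points lie under 200, and the 3 long CYP86B1 peptides of the single assemblies (515, 515 and 363) are in the organ column. Other P450s, not drawn, also had higher medians in organs (184 to 195.5) than in seed stages (153 to 179).

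The rule that selected members used the name and the e-value, but neither length nor mean similarity, and these were compared between the classes of assemblies. Names and tests were still chosen with earlier results of these data known, so the comparison is not independent of them. The median length of the members was 146.5 amino acids in root, 111.5 in leaf and 123 in stem, against 139 at BBCH 05, 117 at BBCH 07, 135 at BBCH 08 and 160 at BBCH 09. Classes overlapped: organs averaged 127 ± 17.8 (SD, n = 3) and seed stages 138 ± 17.7 (SD, n = 4), a difference of -10.75 (exact permutation test over 35 splits, two-sided, p = 0.514, adjusted over 2 tests p = 0.514). With means in place of medians the difference turned to 22.4 (exact permutation p = 0.229). Medians over all matched transcripts were higher throughout, at 194 to 232 in organs and 175 to 200 in seed stages.

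The median similarity was 94% in root, 88% in leaf and 89.5% in stem, against 93% at BBCH 05, 93% at BBCH 07, 90.5% at BBCH 08 and 91% at BBCH 09. Organs averaged 90.5 ± 3.12 (SD, n = 3) and seed stages 91.9 ± 1.31 (SD, n = 4), a difference of -1.38 percentage points (exact permutation test, two-sided, p = 0.514, adjusted over 2 tests p = 0.514). With 3 against 4 assemblies the smallest p that the test can give is 0.0571, so no difference could have passed 0.05. Neither the organs nor the seed stages are replicates of 1 condition, so each SD is a spread between different organs or stages. In each single assembly the members' median similarity lay above that of all matched transcripts, which was 85% to 87%. Other transcripts named as P450 had medians of 85% to 88%, and in leaf the members were close to them (88% against 87%). All members matched Triticum urartu or Aegilops tauschii, against 26.6% of all matched transcripts, so the sets compared differ in matched species.

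**Figure D5:**
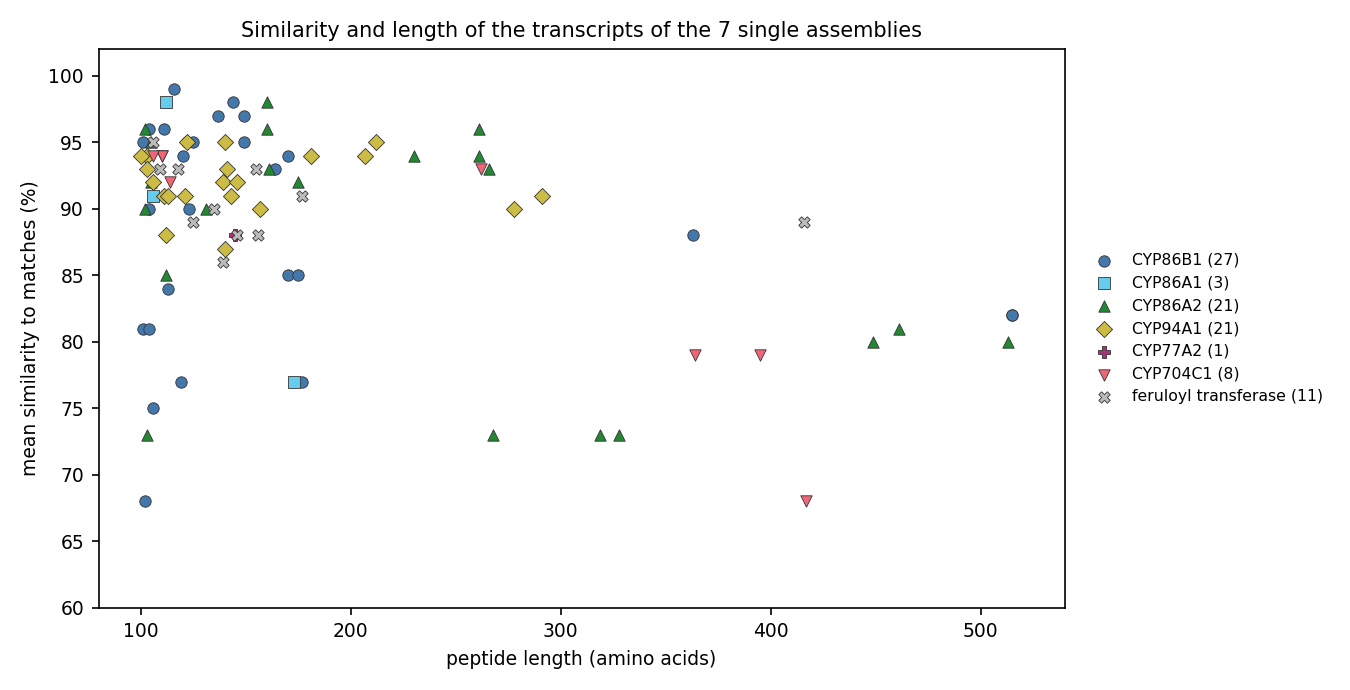
Mean similarity in percent (vertical axis) against peptide length in amino acids (horizontal axis) for the 92 transcripts of the 7 single assemblies, with 1 symbol per name. Short peptides spread from 68% to 99%, and the long CYP704C1 peptides (364, 395 and 417) lie at or under 79%.

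Within the CYP86B1 name, similarity differed between proteins, with overlap. M7YEQ2, the most frequent, was matched at 85% to 97% over its 13 transcripts in the single assemblies. M7Z651 was matched at 98% in root and 99% at BBCH 08, and M8AD10 at 97% in root. M7Z045 was matched at 68% to 84% over 7 transcripts, and M7Z762 at 81% and 85%. CYP94A1 was the most even name, from 87% to 95% over 21 transcripts, and the feruloyl transferase ran from 86% to 95% over 11.

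Names were mixed within clusters. Of the 76 clusters that held a member in the single assemblies, 15 held several member transcripts, and 5 of these held different names. In root and again in the combined assembly, M7Z651 (CYP86B1) and M8B3R6 (CYP704C1) shared a cluster. At BBCH 08 and in the combined assembly, M8CYU9 (CYP86A2) shared one with M7Z045 (CYP86B1), and in stem and at BBCH 09 it shared one with a CYP86A1 match. Root also joined N1QT03 (CYP86A2) with M7YEQ2 (CYP86B1). The counts of these names are therefore not independent of each other. Whether reads were split between them was not tested.

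The GO terms of the members followed the enzyme class more than the pathway. Heme binding stood on 99 of the 133 transcripts, and the acyl transfer term on all 21 feruloyl transferase transcripts. The terms for suberin biosynthesis (22 transcripts over the single assemblies) and cutin biosynthesis (52) stood on none of the members, and all 22 of the suberin term had uninformative names. The suberin term was on 3 transcripts in root, 4 in leaf and 3 in stem, against 3 at BBCH 05, 2 at BBCH 07, 4 at BBCH 08 and 3 at BBCH 09. These counts differ by at most 2 between libraries.

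Sporopollenin biosynthesis was the only term of a cell wall lipid polymer on members. It stood, together with alkane 1-monooxygenase activity, on 5 of them: CYP86B1 matched to M7Z651 in root, at BBCH 08 and in the combined assembly, and CYP704C1 matched to M8B3R6 in root and in the combined assembly. These 5 were also the only members with an enzyme code, and 4 of them were the cluster pairs named above. A term for bone mineralization stood on 42 of the 133 members, on 31 of the 63 matched to Aegilops tauschii and on 11 of the 70 matched to Triticum urartu. It also stood on 28407 transcripts over the single assemblies and names a process that plants do not have. How it was assigned was not tested.

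Other genes of cutin, suberin and wax were counted from 14 groups of names, of which 11 were found and 8 were present in every single assembly. No group was tested. No group was higher by count in each organ than in each seed stage (0.88% of all names), and 1 of the 11 was lower (5.37%). This was ABC transporter G family, with 12 in root, 11 in leaf and 11 in stem. The seed stages had 13 at BBCH 05, 13 at BBCH 07, 18 at BBCH 08 and 13 at BBCH 09. Some members of this family export lipids, and the name does not tell these from the rest. As a share of matched transcripts, 2 groups were higher in each organ, as were 6.86% of all names, and none was lower (5.46%). One was long-chain acyl-CoA synthetase, which activates fatty acids, with 4.64 per 10000 in root, 4.93 in leaf and 4.11 in stem, against 3.31 at BBCH 05, 2.75 at BBCH 07, 2.88 at BBCH 08 and 2.69 at BBCH 09. The other was non-specific lipid-transfer protein, with 1.37 to 2.11 per 10000 in organs, against 0 at BBCH 05 and 0.250 to 0.978 at the later stages.

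The first step on the way to very long chains, 3-ketoacyl-CoA synthase, had 25 transcripts in root, 8 in leaf and 31 in stem, against 34, 26, 21 and 34 from BBCH 05 to BBCH 09. Leaf was low and the rest overlapped. GDSL esterase/lipase, a family that includes cutin synthase, had 7 to 17 in organs and 13 to 18 in seed stages. Fatty acyl-CoA reductase, which makes the fatty alcohols of wax and suberin, had 6 in root, 3 in leaf and 2 in stem, against 1 at BBCH 05, 3 at BBCH 07, 3 at BBCH 08 and 5 at BBCH 09. Glycerol-3-phosphate acyltransferase, which in Arabidopsis sets the acyl chains of cutin and suberin on glycerol, was seen in root (1) and at BBCH 07 (3) alone, and HOTHEAD, an oxidoreductase of cuticle formation in Arabidopsis, at BBCH 09 alone (1). The name CASP had 175 transcripts, but it does not tell the membrane proteins of the Casparian strip from others of that name. No CYP703, no peroxygenase and no further CYP86, CYP94, CYP77 or CYP704 name was found.

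Over the 7 single assemblies, the summed share of the members was most like that of diacylglycerol kinase (Pearson r = 0.96), meiosis mei2 (0.94), lysine-specific demethylase 3b (0.90), iron-sulfur cluster assembly (0.89) and mannosyl-oligosaccharide glucosidase (0.88), out of 2268 names compared. The 7 points share their libraries and the size of their assemblies, and this is a description with no test. The 5 names were picked as the highest of 2268 correlations over 7 points, so high values can come from the search alone. Diacylglycerol kinase had 13 transcripts in root, 12 in leaf and 11 in stem, against 15 at BBCH 05, 12 at BBCH 07, 14 at BBCH 08 and 17 at BBCH 09. Lysine-specific demethylase 3b had 7 to 21 per single assembly. Counts were small for meiosis mei2 (1 to 3), iron-sulfur cluster assembly (0 to 4) and mannosyl-oligosaccharide glucosidase (1 to 4), so their correlations rest on steps of 1 transcript.

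The limit on the e-value was far from nearly all members. The weakest match inside it was the CYP704C1 peptide at BBCH 05 (2.3e-13), and 128 of the 133 were at or below 1e-30. Just outside lay a CYP94A1 match at BBCH 08 (1.7, similarity 40%) and a feruloyl transferase match in the combined assembly (3.8, 46%).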

How the data were processed

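RNA of 3 organs and 4 germinated seed stages was sequenced by the authors from strand-specific libraries, and 1 sample per condition was analysed here. Additional libraries of leaf and root that the study made were not analysed here separately. Reads were clipped by the authors with Trimmomatic (also named in the submitters' processing notes, with no version given in the sources used here) and normalized by k-mers. The authors then assembled each library and all reads with Trinity, kept the longest isoforms, merged similar contigs with CD-HIT and translated them. Peptides were searched against plant proteins of UniProtKB, and Blast2GO set descriptions and GO terms. The tables do not hold reads, so the depth behind a transcript is unknown. The deposited e-value is a score from the authors' search, mean similarity is a percent given by the authors' annotation, and length is in amino acids as deposited. Blast2GO drops words such as protein from descriptions, and the name patterns allow for this.

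From these tables the members were found by name at an e-value of at most 0.1, and counted per assembly. Members, lists and tests were chosen with earlier results of these data known. All 7 names are described, other genes come from lists of pathway and organ marker names, and the 5 names most alike by correlation of shares are given. Shares have 95% Wilson intervals (SciPy 1.17.1). Length and similarity of assemblies were compared by an exact permutation test with Benjamini-Hochberg adjustment over 2 tests. Calculations used Python 3.11.15, NumPy 2.4.6 and pandas 2.3.3, and plots matplotlib 3.10.9. The member rule, the background calls and the permutation test were tested on simulated data. Alternatives were other e-value limits, 1 transcript per Trinity gene, distinct proteins, wider names, a length minimum of 150, means in place of medians, each library left out, other minimum counts per name and shares. Counts without an e-value limit and counts of Trinity clusters were added after seeing the data. No sequence or genome position was used here.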

Additional observations from a re-analysis of the deposited data

Results flagged for a closer look

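Among the 4 seed stages, CYP704C1 had 1 transcript at each of BBCH 05, BBCH 07 and BBCH 09 and 0 at BBCH 08, so the gap of BBCH 08 to the rest was the whole range (ratio 1). It was the only one of 10 values checked that stood apart in this way. The difference is 1 transcript, the ratio is 1 whenever 3 of 4 counts are equal, and the stages are not replicates, so nothing is read from it.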

How the results depend on the processing

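Counts of members per assembly moved by under 1.5 times with e-value limits of 1e-05 and 1e-10, with no limit, with 1 transcript per Trinity gene and with wider names. With peptides of at least 150 amino acids only, 5 members were left in root, 2 in leaf and 3 in stem, against 5 at BBCH 05, 4 at BBCH 07, 6 at BBCH 08 and 12 at BBCH 09, and 20 in the combined assembly. Counted as distinct proteins, members fell to 8 at BBCH 05, 9 at BBCH 08 and 20 in the combined assembly, and stayed within 1.5 times elsewhere. The organs minus seeds difference in median length turned to 22.4 amino acids when means were used (exact permutation p = 0.229). With each library left out in turn it ran from -20.5 to -3 (exact permutation p from 0.267 to 0.933), and that in similarity from -3.13 to -0.125 percentage points (p from 0.133 to 1 by the same permutation). The exact permutation p of 0.133 came without root and is the smallest that this reduced test can give. There, leaf (88%) and stem (89.5%) lay below each seed stage (90.5% to 93%). Taken relative to all matched transcripts of each assembly, the length difference was -33.25 (exact permutation p = 0.171). The other alternatives kept both directions. That no p fell under 0.05 was fixed by the design, whose smallest p is 0.0571 with all 7 libraries and higher with 1 left out. The percentages over all names depended on the minimum number of transcripts. With a minimum of 4, 13.7% of names were absent from root, 25.2% from leaf, and 0.936% had at least 70% in 1 assembly, against 0.501%, 6.51% and 0% with a minimum of 15. Over the same minimums, 16.8% and 6.76% had at least 2 times as many transcripts in the later seed stages, 14.9% and 4.13% in the earlier ones, and 5.24% and 10.0% were lower in each organ. By shares, 6.86% of all names were higher in each organ, against 0.88% by counts, and 7.96% had at least 2 times as much in the later seed stages. With 1 library per condition, library and condition cannot be told apart, names depend on how the matched proteome was annotated, and a count of 0 may be a missed assembly.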
